A study of Mus musculus with 4 samples.

Results

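The genes described here were the adenylyl cyclases and cyclic nucleotide phosphodiesterases of the mouse pituitary gland. They were chosen by symbol (Adcy or Pde followed by a number, with a letter from a to d for Pde), which gave 32 of 32285 genes, 10 Adcy and 22 Pde. The mice were wildtype C57BL/6J males kept for 12 weeks on either control food (CTRL, libraries CTRL 1 and CTRL 2) or high fat food (HFD, libraries HFD 1 and HFD 2), and their age is not given in the sources used here. Pituitary glands were digested with collagenase and trypsin, and the cells were captured in droplets and counted by unique molecular identifiers (UMIs) read from the 3′ end of each polyadenylated transcript. Nothing in the labels gives the number of animals behind a library or ties libraries to animals, so each p-value covers the scatter among 4 libraries, part or all of which may be technical.

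Adenylyl cyclases make cyclic AMP (cAMP) from ATP, and phosphodiesterases break down cAMP, cyclic GMP (cGMP) or both. In the anterior pituitary, receptors for growth hormone-releasing hormone and corticotropin-releasing hormone act through the stimulatory G protein Gs and raise cAMP. Dopamine acts through an inhibitory G protein in lactotropes and melanotropes and lowers it. The isoforms differ in how calcium, G proteins and cGMP act on them, so the set that a cell holds bears on how these signals meet in it.

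Deposited totals ran from 74758237 to 101903367 UMIs per library. Libraries shared cell barcodes: HFD 1 and HFD 2 had 3116 in common and CTRL 2 and HFD 1 had 1423, against 14 to 22 for the other pairs. For 3104 of the barcodes that HFD 1 shared with HFD 2, the HFD 1 copy held a median of 5.58% of the UMIs of the HFD 2 copy. The copy with under 0.25 of the UMIs of its partner was left out, which removed 4106 barcodes from HFD 1, 401 from CTRL 2, 15 from CTRL 1 and 5 from HFD 2. After this, quality filters and doublet removal, 4347, 6826, 5872 and 6924 cells remained in CTRL 1, CTRL 2, HFD 1 and HFD 2, with median UMI counts of 18005, 12478, 10098 and 11044.5. Cells were clustered without the 32 genes and named by markers, with "-like" for a class rebuilt here. There were 11 classes with at least 30 cells in every library: somatotrope-like (8628 cells), lactotrope-like (5092), corticotrope-like (2337), melanotrope-like (1724), stem-like (1373), endothelial-like (1148), gonadotrope-like (960), macrophage-like (530), mesenchymal-like (438), thyrotrope-like (370) and a cluster of 441 cells that stayed unnamed and is called here by its leading gene, the Cck-led cluster. Somatotrope-like cells came from different clusters by diet: a cluster of 2430 cells held 135, 136, 952 and 1207 cells of CTRL 1, CTRL 2, HFD 1 and HFD 2, while another of 3016 held 585, 1257, 473 and 701.

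The RefSeq promoter table (build GRCm38.p6, 250 bases before to 50 after each start) held 48 windows for 24 of the 32 genes. The cAMP response element, the site through which cAMP-activated CREB acts, was searched on both strands as its full form TGACGTCA and as its 5-letter core TGACG, which the full form contains. The full form was in 0 of 48 windows, against 1.79% of all 32851 windows, and the core was in 8 of 48 (16.7%), against 20.8% of all windows. The 100 bases before the start are shown for the windows of Pde4a, Pde4b and Pde8a, cAMP-specific enzymes, that hold a core. The other windows of Pde4a and Pde4b hold none. Pde8b, another cAMP-specific enzyme, has a core after a start, outside the bases shown. Both windows of Pde10a, the gene on which most of the results turn, are also shown and hold none. They lie inside the GENCODE span of the gene, which starts at chr17:8525372, so its first annotated start has no window. Capitals mark the core. These 3′ counts do not show which start a cell uses.
Pde4a, chr9:21184001-21184100, plus strand: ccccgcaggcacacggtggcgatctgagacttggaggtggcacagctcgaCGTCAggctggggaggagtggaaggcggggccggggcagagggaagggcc
Pde4b, chr4:102421455-102421554, plus strand: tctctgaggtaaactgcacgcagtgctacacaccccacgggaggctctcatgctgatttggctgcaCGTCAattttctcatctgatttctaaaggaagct
Pde8a, chr7:81213165-81213264, plus strand: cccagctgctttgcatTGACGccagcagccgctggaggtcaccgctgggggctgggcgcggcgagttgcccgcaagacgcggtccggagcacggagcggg
Pde10a, chr17:8801645-8801744, plus strand: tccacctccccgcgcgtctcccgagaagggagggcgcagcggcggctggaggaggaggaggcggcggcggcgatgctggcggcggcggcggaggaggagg
Pde10a, chr17:8849885-8849984, plus strand: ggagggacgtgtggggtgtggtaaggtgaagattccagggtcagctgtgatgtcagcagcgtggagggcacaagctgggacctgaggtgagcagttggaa

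Levels below are CPM, the UMIs of a gene per 1000000 UMIs summed over a class in a library, and each gene was compared with itself across classes. Of the 32 genes, 23 reached a mean of 10 CPM over the 4 libraries in at least 1 of the 11 classes. Hormone RNA takes part of the total in secretory classes (38.75% of somatotrope-like UMIs and 20.99% of lactotrope-like UMIs), which lowers the CPM of every other gene there.

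**Figure D1:**
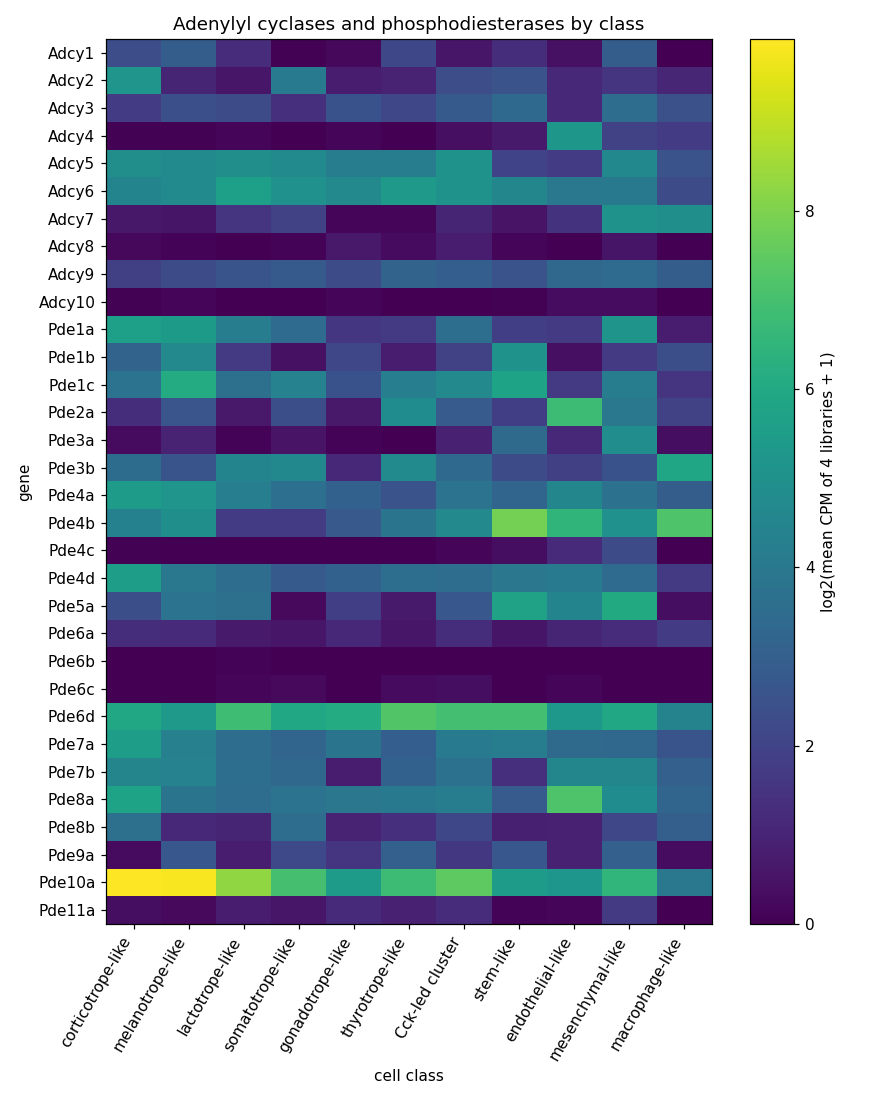
Mean level of the 32 genes in the 11 classes, as log2 of the mean CPM of 4 libraries plus 1, with genes in rows and classes in columns. Pde10a is brightest in corticotrope-like and melanotrope-like cells (972.3 and 905.6 CPM), and Adcy4 stands out in endothelial-like cells alone (37.3 CPM).

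Among the cyclases, Adcy2, an isoform stimulated by G protein beta-gamma subunits, was highest in corticotrope-like cells, at 35.0, 36.6, 35.7 and 33.1 CPM in CTRL 1, CTRL 2, HFD 1 and HFD 2. Somatotrope-like cells followed at 16.3, 14.3, 17.0 and 17.5 CPM. These 4 libraries did not overlap those of corticotrope-like cells, and the other tested classes had means from 0.51 to 4.8 CPM. Adcy4, also stimulated by beta-gamma subunits, had 36.0, 33.6, 45.7 and 33.9 CPM in endothelial-like cells, a mean 12.8 times that of the next class, mesenchymal-like cells (2.93 CPM). Adcy7, the third of this group and known from blood cells, had 28.4, 37.1, 34.0 and 30.6 CPM in mesenchymal-like cells. Its level in macrophage-like cells was 19.6, 20.3, 43.1 and 36.1 CPM, so the 2 classes overlapped, and their order turned to macrophage-like cells first without CTRL 2. The 3 related isoforms thus had their highest means in different classes.

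Adcy5 and Adcy6, isoforms that calcium and inhibitory G proteins hold down, were spread over the hormone cells. Adcy6 was highest in lactotrope-like cells, at 47.2, 45.8, 52.4 and 47.5 CPM, above every thyrotrope-like library (38.3, 37.5, 39.3 and 43.1 CPM). It reached 10 CPM in 10 of the 11 classes, with macrophage-like cells the exception at 3.8 CPM. Adcy5 was highest in the Cck-led cluster, at 27.6, 36.7, 36.0 and 32.2 CPM, and overlapped lactotrope-like cells (mean 28.96 CPM). With hormone genes left out of the totals, the highest Adcy5 mean moved to somatotrope-like cells (41.4 against 37.2 CPM). Adcy5 was low in endothelial-like (2.34 CPM) and stem-like cells (3.0 CPM). Adcy3, a calcium-sensitive isoform known from olfactory neurons, was highest in mesenchymal-like cells, with 8.96, 10.7, 9.44 and 13.2 CPM, and overlapped stem-like cells (9.40 CPM). Adcy9, an isoform that forskolin barely activates, was highest there too, at 5.97, 6.83, 17.0 and 10.4 CPM, and its order among classes was not resolved, since endothelial-like cells led without HFD 1 (9.45 against 7.75 CPM). As shares of Adcy UMIs in a class, Adcy2 was 36.9% ± 2.1 (SD, n = 4 libraries) in corticotrope-like cells, Adcy4 54.6% ± 4.3 in endothelial-like cells and Adcy6 53.6% ± 0.52 in lactotrope-like cells. Capture at the 3′ end can differ between genes, so these are shares of UMIs and not of protein.

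Pde10a, an enzyme that acts on both cAMP and cGMP and is best known from the striatum, had the most UMIs of the group, 90720 over all kept cells. The gene spans chr17:8525372-8986648 on the plus strand (mm10). In corticotrope-like cells it had 991, 896, 1013 and 989 CPM, and in melanotrope-like cells 1005, 771.5, 923.1 and 922.5 CPM. These classes, both of which make pro-opiomelanocortin, overlapped, and melanotrope-like cells led when hormone genes were left out of the totals (1124 against 1058 CPM). Lactotrope-like cells followed at 325, 233, 402 and 287 CPM, below every library of the first 2 classes. Pde10a made up 71.6% ± 1.3 of Pde UMIs in corticotrope-like cells, 72.8% ± 2.0 in melanotrope-like cells and 55.6% ± 5.0 in lactotrope-like cells. It was the largest mean Pde share in 6 of the 11 classes, mesenchymal-like cells among them. There Pde10a had 188.1, 44.9, 71.8 and 60.6 CPM, against 70.2, 79.1, 71.8 and 39.0 CPM for Pde5a, so its lead did not hold in each library. With each cell thinned to 2000 UMIs, 75% ± 1.6 of corticotrope-like and 80.3% ± 3.7 of melanotrope-like cells held a Pde10a UMI, against 1.8% ± 1.7 of macrophage-like cells (unthinned 84.8%, 97.9% and 3.4%). Median depths ran from 9000 to 12894 UMIs in corticotrope-like, 13716 to 19830 in melanotrope-like and 6037 to 7707 in macrophage-like cells, and thinning left out 181, 19 and 49 cells.

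RNA free in the suspension gives UMIs in cells that do not make it. The Pde10a level that would come with the Pomc, Prl and Gh UMIs of a class, at the ratio found in corticotrope-like, lactotrope-like and somatotrope-like cells, was 334.7, 222.6, 150.2 and 262.6 CPM in the Cck-led cluster, against measured levels of 164.9, 156.8, 168.2 and 215.0 CPM. In macrophage-like cells it was 43.2, 28.7, 37.7 and 15.4 CPM, above the measured 25.3, 2.90, 28.1 and 2.93 CPM. Measured Pde10a was below this value in 3 of 4 libraries of the Cck-led cluster and in 4 of 4 of macrophage-like cells. In mesenchymal-like cells of CTRL 1 the 2 values were 190.2 and 188.1 CPM. For Pomc the calculation takes the ratio of corticotrope-like cells alone. In melanotrope-like cells it gave 2478, 2541, 2385 and 2730 CPM, above the measured 1005, 771.5, 923.1 and 922.5 CPM. Pde10a per Pomc UMI was thus lower in melanotrope-like cells. The level that their ratio would give in other classes was not computed.

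**Figure D2:**
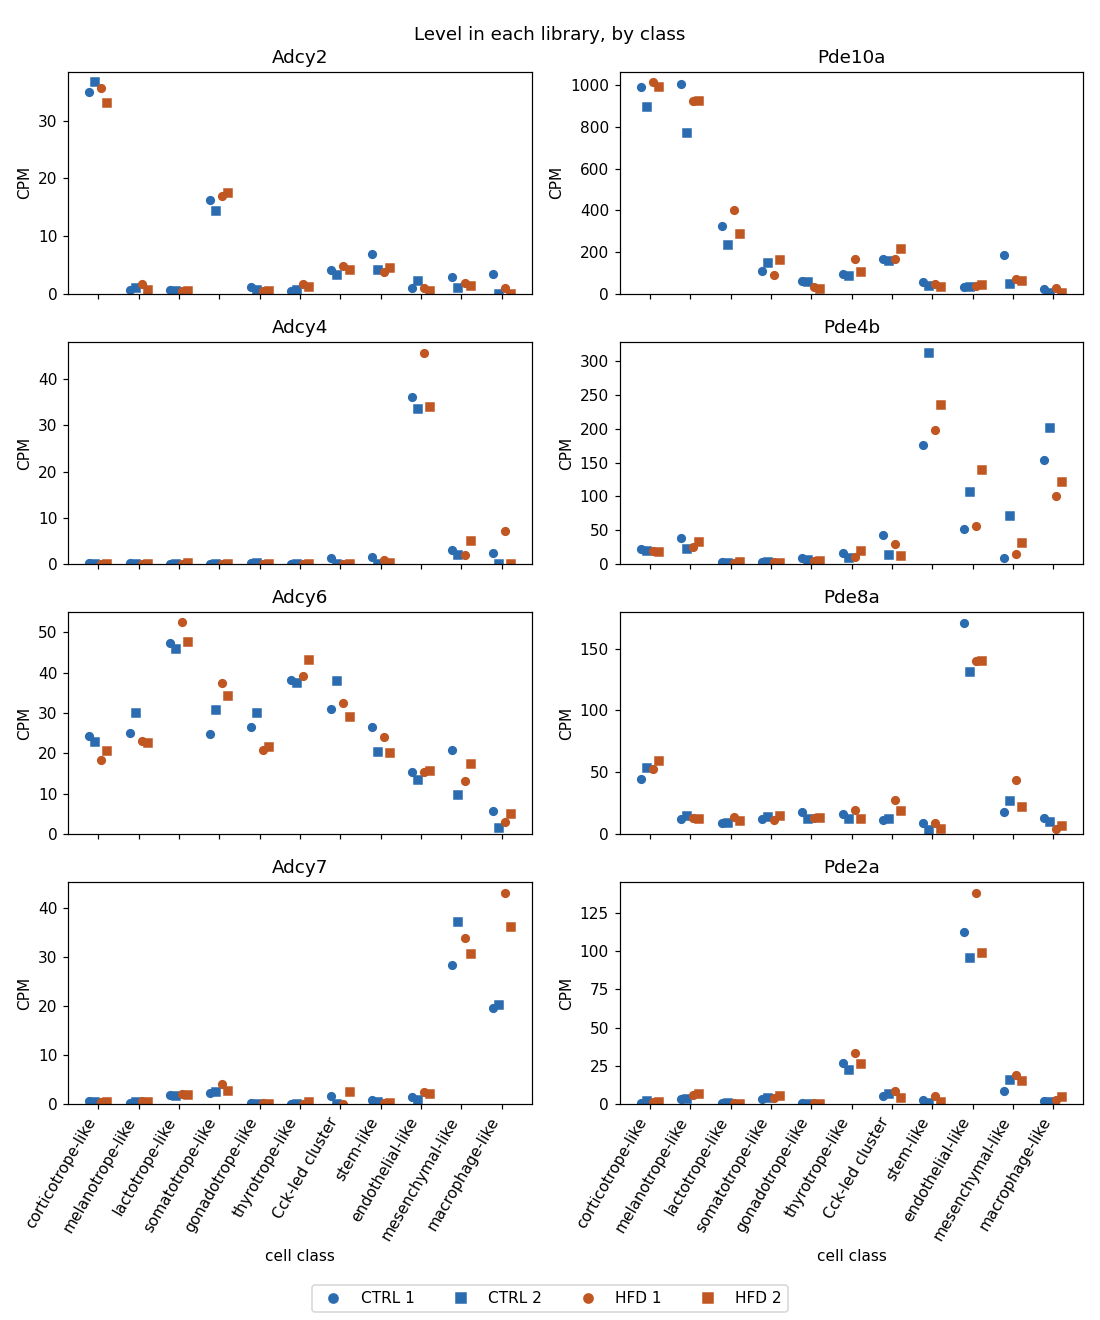
Level of 8 genes in each library, in CPM, by class, with circles for replicate 1 and squares for replicate 2, blue for CTRL and orange for HFD. Adcy4, Pde2a and Pde8a are highest in endothelial-like cells in all 4 libraries, and the libraries of Adcy7 in macrophage-like cells run from 19.6 to 43.1 CPM.

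Among the cAMP-specific phosphodiesterases, Pde4b, a target of anti-inflammatory inhibitors, was highest in stem-like cells, at 175.9, 313.3, 198.0 and 234.9 CPM. Macrophage-like cells followed at 154, 201, 100 and 121 CPM, below stem-like cells within each library although the ranges overlapped. Pde4b was 2.4 CPM in lactotrope-like and in somatotrope-like cells. Pde4a had 49.3, 37.8, 47.3 and 39.9 CPM in corticotrope-like cells and overlapped melanotrope-like cells (35.6 CPM). Pde4d had 37.6, 48.2, 47.7 and 48.1 CPM in corticotrope-like cells, 2.82 times the mean of the next class, endothelial-like cells. Pde7a was also highest in corticotrope-like cells (49.5, 42.1, 44.1 and 44.1 CPM), 2.35 times melanotrope-like cells. Pde7b had no resolved order, with 21.1, 21.1, 29.0 and 19.7 CPM in endothelial-like cells and a mean of 22.6 CPM in mesenchymal-like cells. Pde8a, a high-affinity cAMP enzyme, had 171, 131, 140 and 140 CPM in endothelial-like cells, 2.76 times corticotrope-like cells. Its relative Pde8b was highest in corticotrope-like cells at 11.4, 15.4, 9.36 and 10.0 CPM and overlapped somatotrope-like cells (10.7 CPM). Somatotrope-like cells had the higher Pde8b mean with hormone genes left out of the totals (17.5 against 12.5 CPM) and without CTRL 2 (11.0 against 10.2 CPM).

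The enzymes that link cGMP or calcium to cAMP also differed by class. Pde2a, which cGMP stimulates, had 112, 95.3, 138 and 98.6 CPM in endothelial-like cells, 4.10 times thyrotrope-like cells (26.9, 22.2, 33.3 and 26.1 CPM). Pde3a, which cGMP inhibits, had 46.3, 23.4, 24.5 and 18.1 CPM in mesenchymal-like cells, and Pde3b had 48.3, 63.7, 45.1 and 71.2 CPM in macrophage-like cells. Pde5a, the cGMP-specific target of sildenafil, had 70.2, 79.1, 71.8 and 39.0 CPM in mesenchymal-like cells and overlapped stem-like cells (51.3 CPM). The calcium- and calmodulin-dependent isoforms parted: Pde1a was highest in corticotrope-like cells (46.4, 54.3, 42.0 and 49.8 CPM), Pde1b in stem-like cells (31.0, 34.7, 37.5 and 29.7 CPM) and Pde1c in melanotrope-like cells (71.0, 66.3, 73.0 and 59.4 CPM). Pde1a and Pde1b overlapped melanotrope-like cells, while Pde1c lay above stem-like cells (52.8 CPM) without overlap. Pde6d, which binds prenylated proteins and has no known catalytic role, reached 10 CPM in all 11 classes and was highest in thyrotrope-like cells (148.9, 168.4, 134.8 and 147.4 CPM).

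The other 9 genes stayed under 10 CPM in every tested class: Adcy1, Adcy8, Adcy10, Pde4c, Pde6a, Pde6b, Pde6c, Pde9a and Pde11a, with highest class means from 0.058 CPM (Pde6b) to 7.31 CPM (Pde9a). Pde6a, Pde6b and Pde6c are the catalytic subunits of photoreceptors. Pericyte-like cells, 122 cells with fewer than 30 in some libraries and so in no test, had Pde5a at 158, 251, 218 and 239 CPM, Adcy6 at 105, 119, 112 and 183 CPM, Pde4d at 78.9, 136, 106 and 209 CPM and Pde4c at a mean of 46.3 CPM. Of the 16 named classes, pericyte-like cells had the highest mean for 10 of the 32 genes. The others were Pde3a (104.4 CPM), Pde1a (77.1 CPM), Adcy9 (40.3 CPM), Pde8b (39.6 CPM), Adcy3 (21.3 CPM) and Adcy10 (0.93 CPM), so the highest classes given above are those among the 11 tested classes. Counts per library were low, such as 3 to 9 UMIs for Adcy3.

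Class pairs set by lineage were compared in 1 fit of the class sums with library as a block (edgeR's quasi-likelihood test, Benjamini-Hochberg adjustment over 15508 genes, called at an adjusted p under 0.05). Of the 32 genes, 27 passed the filter on low counts, which lets a gene pass through a class where it is high. Called genes are named here at an absolute log2 difference of at least 2. In the sentences below, a log2 difference is followed by its SE.

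Between the Pomc classes, 11 of the 27 genes were higher in melanotrope-like and 7 in corticotrope-like cells, beside 40.3% of all genes called in either direction. Past log2 2 were 5 genes, beside 8.45% of all genes. Adcy2 was lower in melanotrope-like cells (1.02 ± 0.50 against 35.1 ± 1.5 CPM, SD, n = 4), which is -5.09 in log2 (SE 0.207, edgeR adjusted p = 5.38e-22). Pde8b was lower too, at -2.91 (SE 0.292). Pde1c was higher by 2.60 (SE 0.184), and Pde9a, a cGMP-specific enzyme, by 4.57 (SE 0.414), with 5.54 against 0.239 CPM. Pde3a was higher by 2.41 (SE 0.647) on 33 against 5 UMIs, and lost the call without CTRL 2 (2.04), without HFD 2 (1.93) and with every shared barcode left out (0.51). For Pde10a the difference was 0.06 (SE 0.250, edgeR adjusted p = 0.894).

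Between lactotrope-like and somatotrope-like cells, 11 genes were higher in the first and 10 in the second, beside 44% of all genes called, and 9 passed log2 2, beside 8.87%. Pde5a was higher in lactotrope-like cells by 5.38 (SE 0.268, edgeR adjusted p = 1.33e-19), at 11.5 ± 2.7 against 0.203 ± 0.069 CPM. Adcy1, a calcium-stimulated isoform known from neurons, was higher by 4.18 (SE 0.525) and Pde1b by 2.32 (SE 0.287), both at low levels (1.38 and 2.24 CPM in lactotrope-like cells). Adcy2 was lower in lactotrope-like cells, at -5.25 in log2 (SE 0.191), at 0.506 ± 0.074 against 16.3 ± 1.4 CPM. Pde8b (-3.72, SE 0.245), Pde2a (-3.03, SE 0.264), Pde3a (-2.74, SE 0.595) and Pde9a (-2.65, SE 0.270) were lower with it. Their levels were 1.05 against 10.7, 0.604 against 4.21, 0.0695 against 0.422 and 0.701 against 3.52 CPM. Pde3a thus had few UMIs in both classes (4 against 53). Adcy4 was also called higher, on 6 UMIs in lactotrope-like and 0 in somatotrope-like cells. The ratio was 3.87 with a floor of 3 counts for the 0, which leaves out the counting error of the 6 UMIs. The Adcy4 call was lost without CTRL 2, HFD 1 or HFD 2 (log2 2.59, 2.80 and 2.11), and with shared barcodes left out of both libraries (1.77).

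Between gonadotrope-like and thyrotrope-like cells, which share the glycoprotein hormone alpha subunit, 3 genes were higher in gonadotrope-like and 12 in thyrotrope-like cells, beside 40% of all genes called. Past log2 2 were 7 genes, beside 11% of all genes. Pde2a was lower in gonadotrope-like cells, at -5.58 in log2 (SE 0.340, edgeR adjusted p = 1.39e-16), at 0.586 ± 0.39 against 27.1 ± 4.6 CPM. Pde3b followed at -4.47 (SE 0.287), with 1.15 ± 0.26 against 25.1 ± 1.3 CPM. Adcy1 (-4.39, SE 0.732, on 4 against 26 UMIs), Pde7b (-3.47, SE 0.445), Pde1c (-2.10, SE 0.277) and Pde9a (-2.04, SE 0.346) were lower as well. Pde5a was higher by 2.08 (SE 0.709), on 61 against 4 UMIs. That call was lost without CTRL 1 (2.03), CTRL 2 (1.52) or HFD 2 (2.04), and with shared barcodes left out of both libraries (2.80).

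Between endothelial-like and mesenchymal-like cells, 6 genes were higher in endothelial-like and 12 in mesenchymal-like cells, beside 46.4% of all genes called. Past log2 2 were 11 genes, beside 15.1% of all genes. Adcy4 (3.57, SE 0.519), Pde2a (2.996, SE 0.246) and Pde8a (2.58, SE 0.222) were higher in endothelial-like cells. The calls for lower levels there covered Pde3a (-4.33, SE 0.466), Adcy7 (-4.15, SE 0.345), Adcy1 (-4.13, SE 0.802), Pde1a (-3.89, SE 0.346), Adcy3 (-3.21, SE 0.449), Adcy5 (-3.20, SE 0.250), Pde9a (-3.10, SE 0.532) and Pde1c (-2.95, SE 0.444). For Adcy1 these were 3 UMIs against 26, a ratio of 19.4 in favour of mesenchymal-like cells with an exact 95% counting interval of 5.96 to 100.3. Mesenchymal-like cells of CTRL 1 (53 cells) carried Pomc at 12360 CPM, against 415.4 to 4141 CPM in the other libraries, and the part of such RNA in these differences was not tested.

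**Figure D3:**
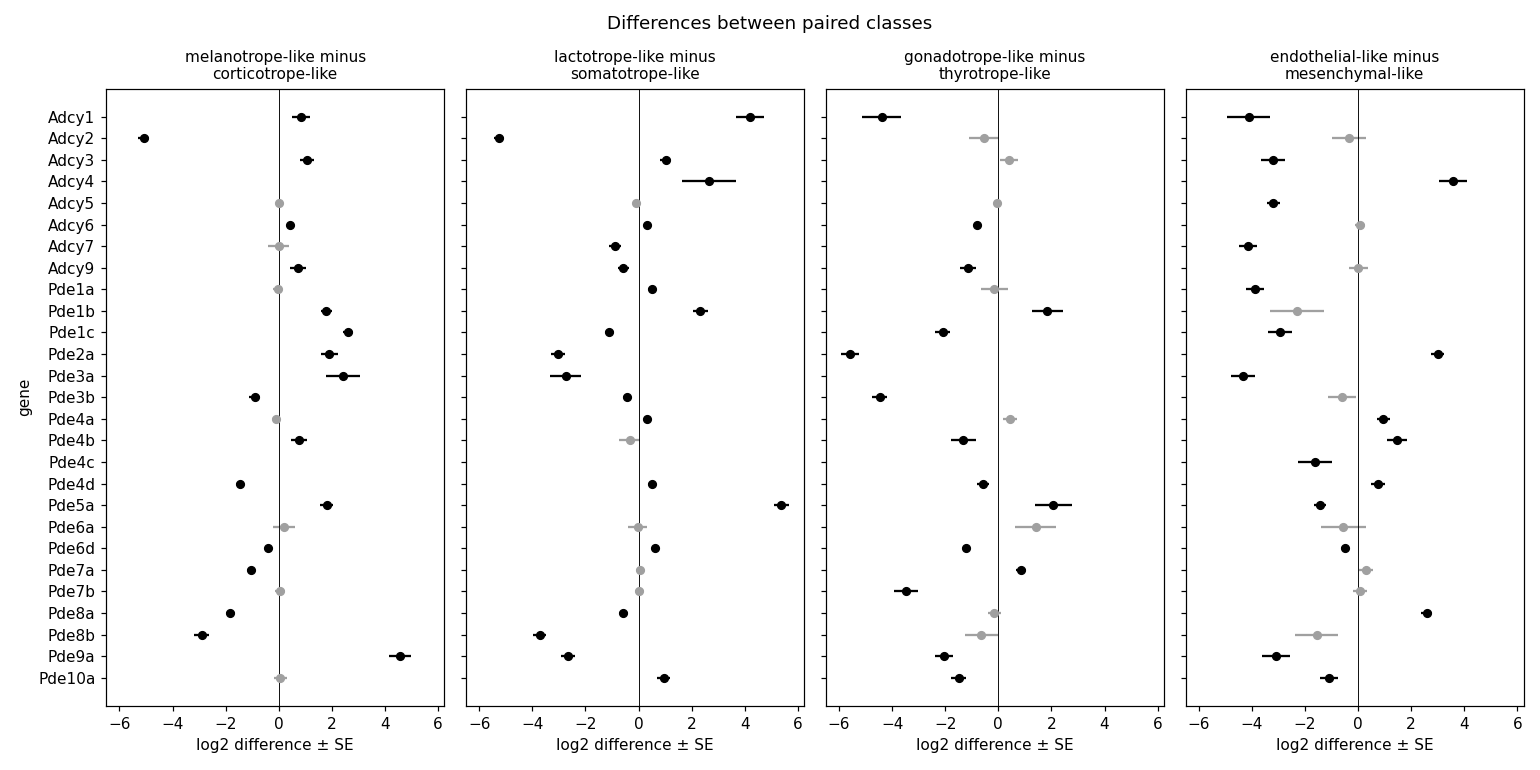
Log2 difference between paired classes with its SE, for the genes that passed the filter, with called genes in black and others in grey. Genes with at most 3 UMIs in each class of a pair are left out, and Adcy2 lies near -5 in the first 2 panels.

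The study's main comparison was between the diets. In gonadotrope-like cells Pde10a fell on HFD, from 61.3 and 56.1 CPM in CTRL 1 and CTRL 2 to 30.2 and 22.9 CPM in HFD 1 and HFD 2. All CTRL values lay above all HFD values. The log2 difference (HFD minus CTRL) was -1.04 (SE 0.148) by edgeR's quasi-likelihood test, with a Benjamini-Hochberg adjusted p of 0.0251 over 12550 genes. The libraries held 400, 268, 125 and 203 Pde10a UMIs. It was the only call among the 16 of the 32 genes tested in this class, beside 1.2% of all genes called there. At an unadjusted p under 0.05 in edgeR's test were 3 of the 16, beside 21.24% of all genes in this class. Over the 11 classes together that share of all genes was 9.58%. The Pde10a level was 4.38% of that in corticotrope-like cells. Leaving out each library in turn kept the call, with differences from -1.23 to -0.82. With shared barcodes kept it was -0.96 (edgeR adjusted p = 0.042). With shared barcodes left out of both libraries it was -0.50 (edgeR adjusted p = 0.999). Then 208, 55, 52 and 35 gonadotrope-like cells with 400, 17, 17 and 4 Pde10a UMIs remained. The Pde10a levels were then 61.3 and 39.81 CPM in CTRL and 39.85 and 35.2 CPM in HFD libraries, so the diets overlapped.

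Other values also differed between the libraries of these cells, some by diet and some in a single library. The Pde10a level that would come with the hormone RNA of other classes was 25.7, 17.0, 14.2 and 12.4 CPM in CTRL 1, CTRL 2, HFD 1 and HFD 2, below the measured level in each library. The summed level of 28 immediate-early genes, which rise when tissue is handled or digested, was 5767, 5646, 3424 and 3427 CPM. Among markers of other classes in these cells, the 5 of the somatotrope list summed to 20790, 5718, 2929 and 6405 CPM, the 5 of the lactotrope list to 4646, 6042, 1435 and 2312 CPM, and the 6 of the red blood cell list to 34.5, 23.8, 44.4 and 1478 CPM. The somatotrope sum of CTRL 1 and the red blood cell sum of HFD 2 stood apart from the other libraries. The part of these values in the Pde10a result was not tested. Thinned to 2000 UMIs, 8.46%, 9.28%, 6.55% and 5.37% of gonadotrope-like cells held a Pde10a UMI (unthinned 69.2%, 57.8%, 36.5% and 33.2%, at median depths of 25256 to 31815.5 UMIs), against 0% to 3.45% of macrophage-like cells.

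In thyrotrope-like cells Pde10a had 95.7 and 83.3 CPM in CTRL and 166.4 and 102.8 CPM in HFD libraries, 0.53 in log2 (SE 0.171), which did not pass the test (edgeR adjusted p = 0.39; 0.256% of all genes called). HFD 1 was the highest of the 4 libraries, and without it the difference was 0.20 (edgeR adjusted p = 0.872). It passed the test without HFD 2 (0.90, edgeR adjusted p = 4.25e-05), with no low-count filter (edgeR adjusted p = 0.0487) and with the libraries blocked by replicate number (edgeR adjusted p = 0.0114, and 0.0368 with the numbers crossed). With shared barcodes left out of both libraries it was 0.97 (edgeR adjusted p = 0.0506). Then 77, 39, 60 and 5 thyrotrope-like cells with 185, 45, 138 and 10 Pde10a UMIs remained in CTRL 1, CTRL 2, HFD 1 and HFD 2. The difference between the diet effects of the 2 classes, tested after the values had been seen, was -1.57 (SE 0.171, edgeR adjusted p = 1.02e-05), the only call among 16 of the genes, beside 0.301% of 11617 genes. It was -1.73 to -1.45 with each library left out. With shared barcodes left out of both libraries the difference was -1.47 (edgeR adjusted p = 0.187), on 5 thyrotrope-like cells in HFD 2.

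Over the 11 classes, 187 gene and class pairs were tested for diet and Pde10a in gonadotrope-like cells was the 1 call, beside 0.344% of all gene and class pairs. By class, the share of all genes called was 1.48% in lactotrope-like, 0.302% in corticotrope-like, 0.0227% in mesenchymal-like, 0.0213% in the Cck-led cluster, 0.0198% in endothelial-like, 0.0077% in melanotrope-like and 0% in stem-like cells, and none of the 32 genes was called in these classes. At an unadjusted p under 0.05 were 22 of the 187 (11.8%), beside 9.58% of all pairs. The other pairs with the smallest p among genes at 10 CPM did not pass the test. Pde6d in gonadotrope-like cells had 64.7 and 59.0 CPM in CTRL and 74.9 and 72.8 CPM in HFD libraries (log2 0.39, SE 0.0992, edgeR adjusted p = 0.0896). Pde4a in somatotrope-like cells had 9.25 and 8.92 against 13.6 and 14.1 CPM (log2 0.46, SE 0.120, edgeR adjusted p = 0.156; 0.0549% of all genes called). These somatotrope-like values rest on cells from the different clusters given above. In macrophage-like cells, where 0% of 7137 genes were called, Adcy7 had 19.6 and 20.3 against 43.1 and 36.1 CPM (log2 1.01, SE 0.296) and Pde4b had 154 and 201 against 100 and 121 CPM (log2 -0.66, SE 0.202), both with an edgeR adjusted p of 0.979. The diets did not overlap in any of these pairs, which 2 libraries against 2 cannot take below an exact permutation p of 0.333.

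**Figure D4:**
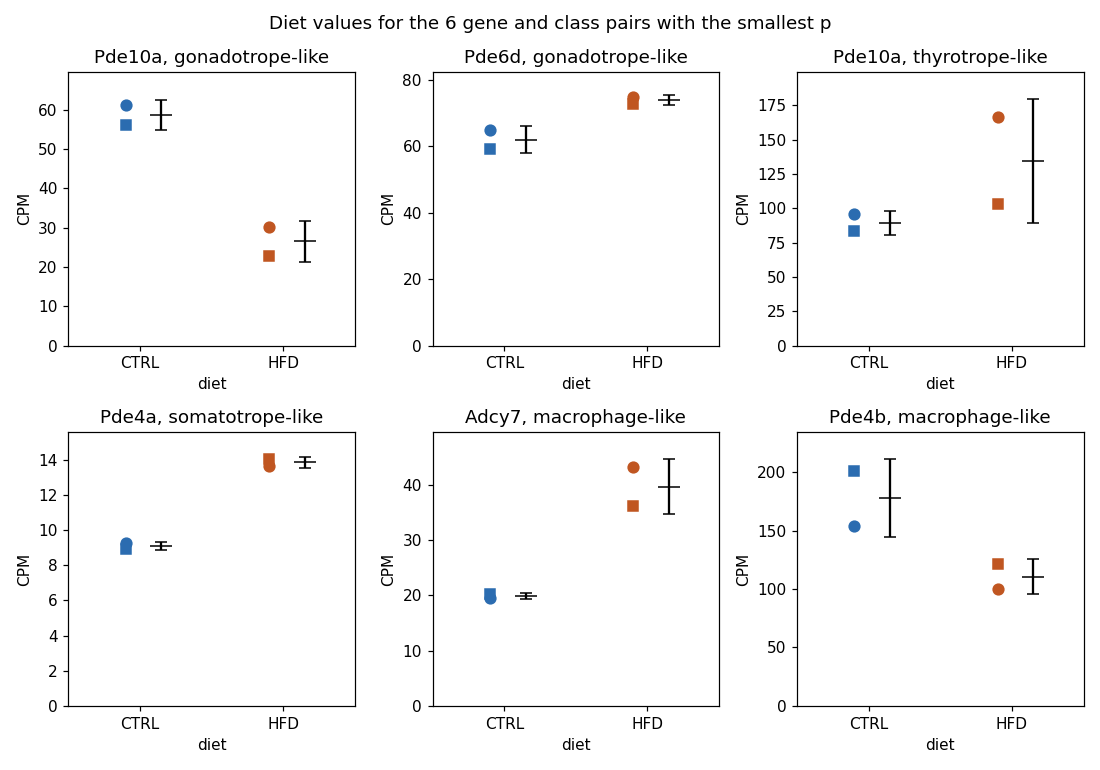
Level in CPM by diet for the 6 gene and class pairs with the smallest p among genes at 10 CPM, with a point per library (circle for replicate 1, square for replicate 2) and the mean ± SD of 2 libraries beside it. Pde10a in gonadotrope-like cells (61.3 and 56.1 against 30.2 and 22.9 CPM) is the pair that passed the test.

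In the whole gland, 0 of 29 genes tested were called, beside 0.0108% of 18519 genes, and 4 had an unadjusted p under 0.05, beside 10.05% of all genes. The smallest p was that of Pde1b, with 7.38 and 7.17 CPM in CTRL and 5.05 and 4.92 CPM in HFD libraries (log2 -0.59, SE 0.106, edgeR adjusted p = 0.332). DESeq2 called 0 of them, beside 1.03% of all genes. In bulk sums of this kind, fewer cells of a type and less RNA per cell cannot be told apart. Between lactotrope-like and somatotrope-like cells the diet effect differed for 0 of 25 genes by the edgeR interaction test, beside 0.663% of 14481 genes, and 3 had an unadjusted p under 0.05. The smallest p was that of Pde7b, at -1.002 (SE 0.277, edgeR adjusted p = 0.16).

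Of 56 other genes of cAMP and cGMP signalling (G protein alpha subunits, protein kinases A and G, anchoring proteins, CREB factors, guanylyl cyclases and cyclic nucleotide-gated channels), 385 gene and class pairs were tested and 1 was called. Gucy1a1, a subunit of the nitric oxide receptor guanylyl cyclase, fell in lactotrope-like cells from 4.19 and 4.44 CPM in CTRL to 1.95 and 2.08 CPM in HFD libraries. It fell by 1.15 on the log2 scale (SE 0.269, edgeR adjusted p = 0.0477), beside 1.48% of all genes called in that class. The call was lost with DESeq2 (adjusted p = 0.291), without CTRL 1, CTRL 2 or HFD 1 (edgeR adjusted p = 0.207, 0.38 and 0.138), with stricter cell filters (edgeR adjusted p = 0.0501), at a clustering resolution of 1.2 (edgeR adjusted p = 0.0654) and with shared barcodes left out of both libraries (edgeR adjusted p = 0.121). It was kept in 6 of 13 alternatives.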

How the data were processed

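The files held raw UMI counts per gene and barcode in 4 matrices, as the authors deposited them. Cell Ranger 6.1.2, Seurat 4.3 and the build mm10 are named, without roles, per the submitters' processing notes. The annotation and the strand setting of the counting are not stated in the labels or headers, so reads of overlapping or antisense genes cannot be told apart. A barcode counted as a cell if it had 500 or more genes and no more than 20% of its UMIs from mitochondrial genes. Of each barcode found in 2 libraries, the copy under 0.25 of the UMIs of the other was left out. Of 34737 barcodes, 1930 such copies passed the other filters. Doublets were scored per library against simulated doublets (2 per cell, 50 neighbours), and 1321 were removed at 0.8% per 1000 cells.

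Clustering used log-scaled counts, 2000 variable genes without the 32 genes and the pathway list, 30 components, 20 neighbours and the Leiden method at 0.8 (leidenalg 0.10.2, with scikit-learn 1.9.0 and scanpy 1.11.5). A class needed 3 detected markers. Marker folds were averaged within libraries, cycling genes counted against a name, and shared barcodes were handled, after clusters or files had been seen. Counts were summed per class and library and tested with edgeR 4.0.16 (quasi-likelihood, TMM, filterByExpr, Benjamini-Hochberg adjustment over all genes), with no covariate for diet. DESeq2 1.42.0, RLE size factors, no filter, stricter cells, resolution 1.2, a replicate block and leaving out libraries were alternatives. The scripts were tested on simulated data. SE is the log2 difference divided by the root of F.

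The 32 genes and all lists were chosen with earlier results of these data known. Genes are named by rule: at least 10 CPM in a tested class, a diet call or 1 of the 5 smallest diet p-values at 10 CPM, or a called class-pair difference of at least log2 2. Counting intervals and floors of 3 counts cover counting error only. Sequences are RefSeq's, and gene positions are from GENCODE.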

Additional observations from a re-analysis of the deposited data

Results flagged for a closer look

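The diet effect on Pde10a differed between gonadotrope-like and thyrotrope-like cells by -1.57 (SE 0.171, edgeR interaction test, adjusted p = 1.02e-05), lower on HFD in the first and higher in the second in 2 of 2 libraries each. With shared barcodes left out of both libraries the adjusted p was 0.187.

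In the following pairs of classes, every HFD library lay on one side of both CTRL libraries in the first class and on the other side in the second. The list is not complete. Adcy6, which is not in it, was lower on HFD in gonadotrope-like cells (26.5 and 29.9 against 20.8 and 21.7 CPM). It was higher in somatotrope-like cells (24.8 and 30.6 against 37.5 and 34.2 CPM). The share of all genes with such opposite diet differences was not computed. Of the listed pairs, the difference between the classes was tested for Pde6d alone. Pde10a was lower on HFD in gonadotrope-like cells (log2 -1.04) and higher in the Cck-led cluster (0.16) and in endothelial-like cells (0.31). With the Pomc ratio of corticotrope-like cells, its level was below that carried with hormone RNA in 3 of 4 libraries of the Cck-led cluster. The same held in CTRL 2 of endothelial-like cells (33.2 against 35.6 CPM). Pde4a was higher on HFD in somatotrope-like cells (0.46) and lower in mesenchymal-like cells (-0.47). Pde6d was higher in gonadotrope-like (0.39) and lower in thyrotrope-like cells (-0.15), and the edgeR interaction test of that difference did not pass (0.52, SE 0.166, adjusted p = 0.266). A diet had 2 libraries, too few for a test of single outlying samples.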

How the results depend on the processing

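Pde10a in gonadotrope-like cells kept its direction and call in 12 of 13 alternatives, with log2 differences from -1.23 to -0.82. The exception left shared barcodes out of both libraries, -0.50, where fewer cells remained. The diets then overlapped, with 61.3 and 39.81 CPM in CTRL and 39.85 and 35.2 CPM in HFD libraries. The count of diet calls over all classes, 1 in the report, was 3 with no low-count filter, 2 with the replicate block, 2 with the crossed replicate block, 0 with shared barcodes left out of both libraries and 1 to 4 with each library left out. Beside these, the share of all gene and class pairs called was 0.344% in the report, 1.3% with no low-count filter, 0.901% with the replicate block, 1.25% with the crossed block, 0.677% with DESeq2, 0.37% with shared barcodes kept, 0.147% with them left out of both, 0.247% at resolution 1.2 and 0.6% to 0.853% with each library left out. The further call with the replicate block, and with the crossed block, was for Pde10a in thyrotrope-like cells (0.56 and 0.52). With no low-count filter the further calls were for Pde10a in thyrotrope-like (0.54) and Pde6d in gonadotrope-like cells (0.40), and without HFD 2 the further call was Pde10a in thyrotrope-like cells (0.90). Pde4b in the Cck-led cluster was called without CTRL 2 (-1.33) and without HFD 1 (-1.48). Without CTRL 2, Pde4b in endothelial-like cells (0.99) and Pde10a in mesenchymal-like cells (-1.52) were also called. The pathway list had 1 call in the report, 9 with no low-count filter, 2 with DESeq2, 4 with the replicate block, 6 with the crossed block, 2 with shared barcodes kept, 0 at resolution 1.2 and 1 to 4 with each library left out. The lactotrope-like against somatotrope-like interaction had 0 calls, and 0 to 3 with each library left out. The 3 calls came without HFD 2 (Pde7b -1.38, Pde8a 0.91, Pde10a 1.09), beside 2.78% of all genes there. The cause was not tested. Whole-gland calls stayed at 0 in 12 of 12 alternatives, and class-pair calls ran from 58 to 72 (72 in the report). Thinned to 4000 UMIs in place of 2000, 20 of the genes were found in at least 10% of cells of a class, against 8.

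Same-numbered libraries shared only a number: the correlation of their deviations ran from -0.18 (somatotrope-like) to 0.36 (endothelial-like), so the replicate block is not a pairing given by the design. Genes called in gonadotrope-like cells went from 150 to 80 with the replicate block and 276 with the crossed block, and to 1152 with no low-count filter, 513 without CTRL 1, 250 without HFD 1 and 2 with shared barcodes left out of both libraries.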

Other observations

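The summed Adcy level in somatotrope-like cells was 71.6 and 76.5 CPM in CTRL and 96.9 and 91.6 CPM in HFD libraries, and in gonadotrope-like cells it was 57.4 and 58.6 against 46.6 and 49.3 CPM. The diets also did not overlap in the Adcy sums of endothelial-like, macrophage-like and melanotrope-like cells. None of these sums was tested. Hormone RNA took 44.0%, 38.3%, 34.75% and 37.9% of somatotrope-like UMIs in CTRL 1, CTRL 2, HFD 1 and HFD 2. Somatotrope-like cells also came from different clusters by diet, as given above. The part of either in the somatotrope-like sum was not tested. In the same somatotrope-like cells the summed level of the immediate-early genes was 8554, 12560, 5137 and 6119 CPM in CTRL 1, CTRL 2, HFD 1 and HFD 2. T or NK cell-like cells, 162 cells that entered no test, had the highest means in any class for Pde7a (173.6 CPM), Pde3b (102.7 CPM), Adcy7 (72.5 CPM) and Pde11a (4.66 CPM).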
